A study of Mus musculus with 12 samples.

Results

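The genes studied here write, copy and remove cytosine methylation, and they were chosen by name. The list held 9 genes, namely the DNA methyltransferases Dnmt1, Dnmt3a and Dnmt3b, their cofactors Uhrf1 and Dnmt3l, the TET dioxygenases Tet1, Tet2 and Tet3, and the thymine DNA glycosylase Tdg. A transcript cluster, the unit of the array, counted as a member when it carried exactly 1 gene symbol and that symbol was on the list. This gave 11 clusters of 8 genes among 35556 clusters, with 3 clusters for Tet1, 2 for Tet3 and 1 for each other gene. No values are given for Tdg, because all 4 clusters that list it also list the pseudogene Tdg-ps2.

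Gene expression was measured on 12 Affymetrix arrays of type 2 diabetes (T2D) and control mice, 2 arrays in each of 6 groups named by their sample titles. The T2D groups were 6Y, 16Y and 42Y, and the control groups were 6K, 42WKK and the arrays titled 1-3 and 1-5, here called control 1. The methods describe mice of 42 weeks, both KK-Ay, in which the A-y allele of the agouti gene leads to obesity and diabetes, and KK, the same background lacking that allele. No source used here gives the unit of the other title numbers, the sex of the mice, the strain of control 1, a batch for the arrays, or how many animals the arrays stand for, and the p-values below measure only the spread between samples, which may be technical. The sample records go against the series design for a pair of groups, calling 6K T2D and 42Y control. The agouti signal was 6.78 to 7.06 on the log2 scale in the 6 T2D arrays as the design names them, and 5.20 to 5.51 in the other 6 arrays, with no overlap. Results that use 6K or 42Y are therefore given with the groups of the design, and those that can be had without the 6K arrays were also computed that way. The records name blood as the tissue and describe capture of methylated DNA, while the methods name liver and gene expression. On every array the hepatocyte list averaged between 12.8 and 13.0, against 4.12 to 4.42 for the T cell list and 3.77 to 4.16 for the B cell list.

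Methyl groups on CpG cytosines are placed on new sites mainly by Dnmt3a and Dnmt3b, which the catalytically inactive Dnmt3l can stimulate. After DNA replication Uhrf1 binds the half-methylated CpG sites and recruits Dnmt1, which copies the pattern to the new strand. The TET enzymes oxidise methylcytosine in a reaction that uses 2-oxoglutarate, and Tdg excises the later oxidation products so that base excision repair can restore cytosine. In the adult liver most hepatocytes are not dividing, and Dnmt3b is known as an enzyme of embryonic and proliferating cells.

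Dnmt3b, Dnmt1 and Tet3 each had a cluster whose signals set the arrays with 6 in their titles apart, for Tet3 only 1 of its 2 clusters. Promoter sequences of these 3 genes are shown because the members act on CpG sites. Each is the 250 bases before a RefSeq start on the GRCm38.p6 build, read 5′ to 3′ on the strand of the gene, with CpG dinucleotides in capitals. Dnmt3b lies on the plus strand at chr2:153649199-153649448, the Dnmt1 start with the most CpG sites on the minus strand at chr9:20952624-20952873, and Tet3 on the minus strand at chr6:83441679-83441928.
Dnmt3b: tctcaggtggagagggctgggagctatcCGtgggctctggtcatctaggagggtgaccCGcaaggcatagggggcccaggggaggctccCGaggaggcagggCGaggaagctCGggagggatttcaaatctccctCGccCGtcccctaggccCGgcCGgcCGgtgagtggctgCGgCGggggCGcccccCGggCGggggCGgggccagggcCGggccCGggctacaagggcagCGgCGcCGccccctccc
Dnmt1: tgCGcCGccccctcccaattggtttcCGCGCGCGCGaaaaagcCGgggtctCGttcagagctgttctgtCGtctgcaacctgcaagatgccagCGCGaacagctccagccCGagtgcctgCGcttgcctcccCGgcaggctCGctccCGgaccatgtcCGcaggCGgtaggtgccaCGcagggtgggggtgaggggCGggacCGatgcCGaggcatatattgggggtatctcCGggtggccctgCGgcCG
Tet3: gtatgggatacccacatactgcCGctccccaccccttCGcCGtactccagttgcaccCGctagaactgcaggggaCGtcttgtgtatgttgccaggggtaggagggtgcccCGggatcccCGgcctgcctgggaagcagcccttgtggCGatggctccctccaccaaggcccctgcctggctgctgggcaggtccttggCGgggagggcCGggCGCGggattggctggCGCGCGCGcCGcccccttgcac
These stretches held 21 CpG sites for Dnmt3b, 26 for Dnmt1 and 17 for Tet3, against a median of 6 in 32851 mouse promoters of the same length. Each thus had more CpG sites than 83.7%, 90.4% and 76.5% of those promoters, in the order Dnmt3b, Dnmt1, Tet3. Over the 16 starts of all 9 listed genes, 12 were above that median. The other Dnmt1 starts held 7 and 2 CpG sites, and the Dnmt3l starts held 5, 4 and 3. The GC box GGGCGG, searched on both strands, occurred 3 times before Dnmt3b, 2 times before Dnmt1 and 1 time before Tet3, and 32.7% of all promoters held it. A strict E2F motif, TTTCGCGC or TTTGGCGC on either strand, was found at 2 of the 16 starts, this Dnmt1 start and a Uhrf1 start, against 0.654% of all promoters. These matches describe the letters only.

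Dnmt3b, a de novo methyltransferase, was the member called most often, in 3 of the 9 comparisons, 1 of them added after the values had been seen. Its log2 signal was 6.00 and 6.05 in the 6Y arrays, 4.99 and 5.05 in the 16Y arrays, 4.89 and 4.71 in the 42Y arrays, 5.92 and 6.03 in the 6K arrays, 5.24 and 5.13 in the 42WKK arrays, and 5.42 and 5.16 in the control 1 arrays. All 4 arrays with 6 in their titles, T2D and control alike, lay above all 8 others, with a gap of 0.50. The order of the group means was 6Y, 6K, control 1, 42WKK, 16Y and 42Y, and the arrays of neighbouring groups overlapped between 6Y and 6K and between control 1 and 42WKK. The 42Y values lay close to the medians of all clusters on those arrays, 4.79 and 4.75.

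Among T2D mice Dnmt3b fell to a mean of 5.02 in 16Y, against 6.03 in 6Y, a ratio of 0.499 with a 95% interval of the log2 difference of -1.28 to -0.73 (limma, adjusted p = 0.0183). It fell to 4.80 in 42Y, against 6.03 in 6Y, a log2 difference of -1.22 with an interval of -1.50 to -0.95, or a ratio of 0.428 (limma, adjusted p = 0.00436). Among control mice, in a comparison added after the values had been seen, it fell to 5.19 in 42WKK, against 5.97 in 6K, a difference of -0.79 with an interval of -1.06 to -0.51 (limma, adjusted p = 0.0286). The call in 42Y against 6Y held without any 1 array, with the adjusted p between 0.00570 and 0.0182 except without an array of 6Y, where it was 0.0345 and 0.0370. The call in 16Y against 6Y was lost without any array of either group, with adjusted p of 0.0654 and 0.0793 without a 6Y array and 0.103 and 0.0902 without a 16Y array. The call in 42WKK against 6K was lost without any array of 6K, 42WKK, 6Y or 16Y, the last 4 arrays entering only through the shared spread, with adjusted p between 0.0525 and 0.194.

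Between T2D and control mice of like title number, Dnmt3b was not called. Its mean was 4.80 in 42Y and 5.19 in 42WKK, and both 42Y arrays lay below both 42WKK arrays. The difference was -0.38 with an interval of -0.66 to -0.11 (limma, adjusted p = 0.156). In 6Y the mean was 6.03, against 5.97 in 6K, a difference of 0.05 with an interval of -0.22 to 0.33, and the arrays overlapped. Against control 1, the 42Y difference was -0.48 with an interval of -0.76 to -0.21 (limma, adjusted p = 0.0916).

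**Figure D1:**
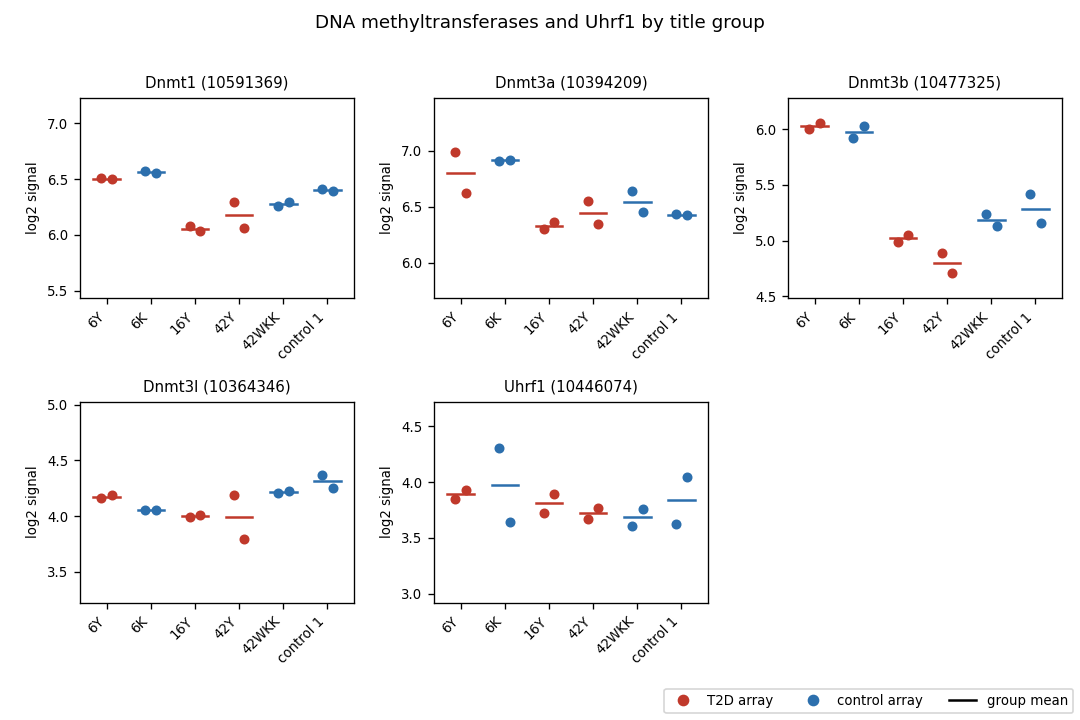
Log2 signal (vertical axis) of the 4 methyltransferase genes and Uhrf1 in each array, by title group (horizontal axis), with cluster numbers in brackets. Points are single arrays, T2D in red and control in blue, lines are means of 2 arrays, and every panel spans the same range of log2 units. Dnmt3b lay between 5.92 and 6.05 in the 6Y and 6K arrays and between 4.71 and 5.42 in the 8 others.

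Dnmt1, the maintenance methyltransferase, had the same split of arrays at a smaller size. Its log2 signal was 6.51 and 6.50 in 6Y, 6.08 and 6.04 in 16Y, 6.30 and 6.06 in 42Y, 6.58 and 6.55 in 6K, 6.26 and 6.30 in 42WKK, and 6.41 and 6.39 in control 1. The 4 arrays with 6 in their titles lay above the other 8 by a gap of 0.09, and the 42Y arrays overlapped those of both 16Y and 42WKK. Dnmt1 averaged 6.06 in 16Y and 6.51 in 6Y, a difference of -0.45 with an interval of -0.68 to -0.22 that missed the threshold (limma, adjusted p = 0.0648). With each array centred on its median the same gene was called, at a difference of -0.53 (limma, adjusted p = 0.0365). The mean was 6.18 in 42Y and 6.28 in 42WKK, a difference of -0.10 with an interval of -0.33 to 0.13 (limma, adjusted p = 0.683). Without the second 42Y array the sign turned, to 0.02.

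Uhrf1, which guides Dnmt1 to replicated DNA, varied more within groups than between them. Its signal was 3.85 and 3.93 in 6Y, 3.73 and 3.90 in 16Y, 3.67 and 3.77 in 42Y, 4.30 and 3.65 in 6K, 3.61 and 3.76 in 42WKK, and 3.63 and 4.05 in control 1. The arrays of every neighbouring pair of groups overlapped, and the 2 arrays of 6K spanned the values of all other arrays but 1 of the 42WKK arrays and 1 of the control 1 arrays. In 42Y against 42WKK the difference was 0.04 with an interval of -0.45 to 0.53. The deposited values hold no detection calls, so whether the signal of any member lies above background was not determined. A list of genes not of liver (eye, muscle, nerve and testis), 12 measured, averaged 3.93 to 4.17 on every array. Uhrf1, Dnmt3l and Tet1 had the lowest signals of the members, near that level. Single genes of that list reached 5.99 (Gnat1). Dnmt3b lay below this on the 8 arrays without 6 in their titles, at 4.71 to 5.42.

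Dnmt3a, the second de novo methyltransferase, read 6.99 and 6.62 in 6Y, 6.30 and 6.36 in 16Y, 6.55 and 6.34 in 42Y, 6.91 and 6.92 in 6K, 6.64 and 6.45 in 42WKK, and 6.43 and 6.42 in control 1. The 3 highest arrays were of 6Y and 6K, and the lower 6Y array lay just below a 42WKK array. The mean was 6.33 in 16Y and 6.81 in 6Y, a difference of -0.48 with an interval of -0.80 to -0.16 (limma, adjusted p = 0.126). In 42Y against 42WKK the means were 6.45 and 6.55, with an interval of the difference of -0.42 to 0.22.

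Dnmt3l, the inactive cofactor, did not share this order. Its signal was 4.16 and 4.19 in 6Y, 3.99 and 4.01 in 16Y, 4.19 and 3.80 in 42Y, 4.05 and 4.06 in 6K, 4.21 and 4.22 in 42WKK, and 4.37 and 4.26 in control 1. The highest means were those of control 1 and 42WKK, and both 42Y arrays lay below all control arrays except those of 6K. The difference in 42Y against control 1 was -0.32 with an interval of -0.61 to -0.03 (limma, adjusted p = 0.232).

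Among the erasers, Tet3 was the only TET gene with a called difference, and its 2 clusters differed. Cluster 10545682 read 6.27 and 6.37 in 6Y, 6.20 and 6.09 in 16Y, 6.07 and 6.07 in 42Y, 6.71 and 6.77 in 6K, 5.76 and 5.78 in 42WKK, and 6.15 and 6.10 in control 1. The 6K arrays were the highest and the 42WKK arrays the lowest of the 12, so the T2D groups lay inside the range of the controls. In the comparison added after the values had been seen, the cluster fell to 5.77 in 42WKK, against 6.74 in 6K. The difference was -0.97 with an interval of -1.18 to -0.76 (limma, adjusted p = 0.00373). Without the first 42WKK array, A, this adjusted p was 0.0521.

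The same Tet3 cluster averaged 6.07 in 42Y and 5.77 in 42WKK, a difference of 0.29 with an interval of 0.09 to 0.50, and both 42Y arrays lay above both 42WKK arrays (limma, adjusted p = 0.151). With clusters of a mean log2 signal of at least 6 alone, which tests fewer clusters, it was called (limma, adjusted p = 0.0405). It averaged 6.32 in 6Y and 6.74 in 6K, a difference of -0.42 with an interval of -0.63 to -0.21 (limma, adjusted p = 0.709). The T2D against control difference at 42 less that at 6 was 0.71 with an interval of 0.42 to 1.01 (limma, adjusted p = 0.0870), so the opposite signs at the 2 title numbers did not pass a test of the difference itself over all clusters. It passed when only the clusters with a mean of at least 6 were tested (limma, adjusted p = 0.0149) or only those with 1 symbol (limma, adjusted p = 0.0456). This difference cannot be had without the 6K arrays.

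Tet3 cluster 10545692 read 6.38 and 6.09 in 6Y, 6.08 and 6.30 in 16Y, 5.76 and 6.01 in 42Y, 6.36 and 6.29 in 6K, 5.87 and 5.72 in 42WKK, and 6.52 and 6.02 in control 1. The 42WKK arrays lay below the 6K arrays here too, but the difference of -0.52 was not called (limma, adjusted p = 0.232). In 6Y against 6K the difference was -0.09 with an interval of -0.51 to 0.33. Over the 12 arrays the 2 clusters had a Pearson r of 0.62, and which of them stands for the whole transcript was not tested.

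Tet2 read 5.66 and 5.96 in 6Y, 5.61 and 5.51 in 16Y, 5.78 and 5.64 in 42Y, 5.83 and 6.08 in 6K, 5.68 and 5.62 in 42WKK, and 5.65 and 5.69 in control 1. No comparison of Tet2 passed, and its difference in 42Y against 42WKK was 0.06 with an interval of -0.24 to 0.37. The 3 clusters of Tet1 gave differences of -0.01, 0.12 and 0.20 in that comparison, with adjusted p between 0.464 and 0.986 (limma). Tet1 clusters 10369690 and 10369702 followed each other over the 12 arrays at an r of 0.87, while cluster 10369688 had an r of -0.03 and -0.05 with them. Tet1 cluster 10369702 was lower in 16Y, at 3.27 and 3.53, than in 6Y, at 3.80 and 3.87, without passing (limma, adjusted p = 0.128).

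**Figure D2:**
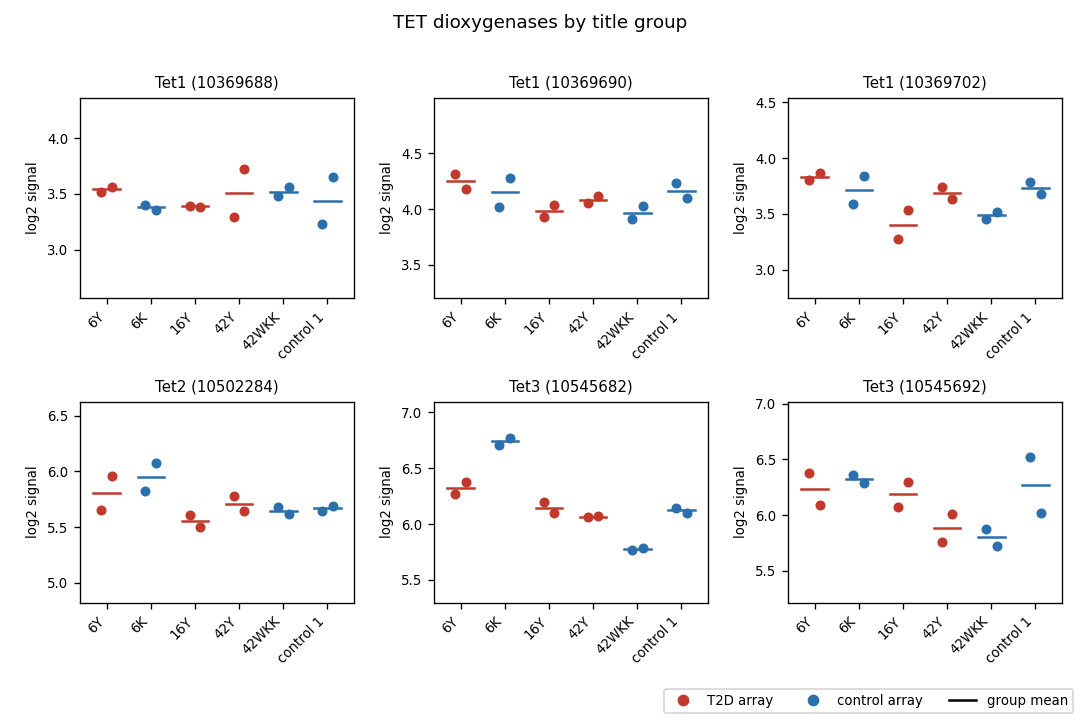
Log2 signal (vertical axis) of the 6 TET clusters in each array, by title group (horizontal axis). Points are single arrays, T2D in red and control in blue, lines are means of 2 arrays. Tet3 cluster 10545682 was highest in 6K, at 6.71 and 6.77, and lowest in 42WKK, at 5.76 and 5.78.

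Set against all clusters, the members had no called difference between T2D and control mice. In 42Y against 42WKK 0 of 11 were called, where 1.85% of all clusters were, and 2 had an unadjusted p under 0.05, Dnmt3b and Tet3 cluster 10545682. The percentages here and in the next paragraph are for calls at an adjusted p. No share of all clusters is given for an unadjusted p under 0.05 or for a lower mean, so those counts are description only. In 6Y against 6K 0 of 11 were called, where 0.00281% of all clusters, a single one, was, and 1 had an unadjusted p under 0.05, Tet3 cluster 10545682. In 42Y against control 1 the count was 0 of 11, against 1.25% of all clusters, with 2 at an unadjusted p under 0.05, Dnmt3b and Dnmt3l. For all T2D against all control arrays it was 0 of 11, against 0.208%, with 2 at an unadjusted p under 0.05. Over the 12 arrays 9 of the 11 means were lower in T2D, and those 2 were Dnmt1, at a difference of -0.17 (limma, adjusted p = 0.298), and Dnmt3b, at -0.20 (limma, adjusted p = 0.303). These directions depended on the grouping. With the 6K arrays left out, in a fit of 2 group means, 3 of 11 were lower and Dnmt3b had a difference of 0.05 (limma, adjusted p = 0.983). With the groups as the sample records give them, 2 of 11 were lower, 0 were called and 2 had an unadjusted p under 0.05, Dnmt3b at 0.58 (limma, adjusted p = 0.519) and Tet3 cluster 10545682 at 0.42 (limma, adjusted p = 0.424). The difference of the T2D effects at 42 and 6 gave 0 of 11, against 0.143% of all clusters, with 2 at an unadjusted p under 0.05, Dnmt3b and Tet3 cluster 10545682.

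Within the T2D groups all 11 means were lower in 16Y than in 6Y and all 11 were lower in 42Y than in 6Y, both of which share the 6Y arrays. These 11 clusters stand for 8 genes, and no share of all clusters with a lower mean is given beside the counts. In 16Y against 6Y 1 of 11 fell, Dnmt3b, where 1.78% of all clusters were called. The median difference was -0.25, beside 0.04 over all clusters, and 9 members had both 16Y arrays below both 6Y arrays, as had 21.6% of all clusters. In 42Y against 6Y 1 of 11 fell, again Dnmt3b, where 1.83% were called, with a median of -0.18 beside 0.00, and 8 members had both 42Y arrays below both 6Y arrays, as had 21.9% of all clusters. In 42Y against 16Y 0 of 11 were called and 0 had an unadjusted p under 0.05, where 0.399% of all clusters were called. Among controls, in 42WKK against 6K, the comparison added after the values had been seen, 2 of 11 fell, where 1.01% were called. They were Dnmt3b and Tet3 cluster 10545682, and the median was -0.29 beside -0.02. There 7 members had both 42WKK arrays below both 6K arrays, as had 26.9% of all clusters.

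A test of any difference among the 6 groups called 2 of 11 members, where 5.43% of all clusters were called. They were Dnmt3b (limma F test, adjusted p = 0.00855) and Tet3 cluster 10545682 (limma F test, adjusted p = 0.0156), followed by Dnmt1 (adjusted p = 0.0670). Dnmt3b, Dnmt1 and Tet3 cluster 10545682 had all 4 arrays with 6 in their titles above all 8 others, which 2.64% of all clusters also had, and no member had the reverse. That pattern was noticed in these data and is given as a description.

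**Figure D3:**
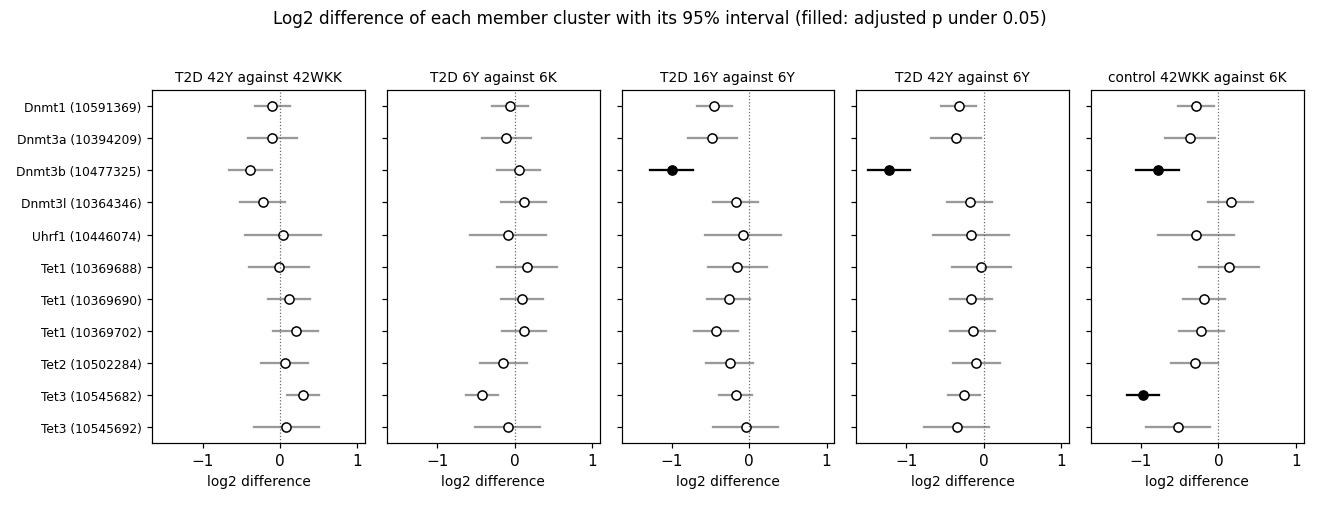
Log2 difference of each member cluster (horizontal axis, with its 95% interval) in 5 comparisons, the group named first minus the one named second. Filled points had an adjusted p under 0.05, namely Dnmt3b in 16Y and 42Y against 6Y and in 42WKK against 6K, and Tet3 cluster 10545682 in 42WKK against 6K. The interval of every other point is drawn in grey. The comparison of 42WKK with 6K was added after the values had been seen.

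The 3 methyltransferases moved together over the arrays. Pearson r over the 12 arrays, which share their groups and their normalization, was 0.87 for Dnmt1 with Dnmt3b, 0.84 for Dnmt3a with Dnmt3b and 0.81 for Dnmt1 with Dnmt3a. Tet3 cluster 10545682 had an r of 0.71 with Dnmt3b, and Tet2 an r of 0.71 with Dnmt1. Dnmt3l followed them less closely, with an r of 0.49 with Dnmt1, 0.26 with Dnmt3b and 0.11 with Dnmt3a, and Uhrf1 had an r of 0.32 with Dnmt1, 0.31 with Dnmt3b and 0.24 with Dnmt3a.

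The genes most like each member were found by the same r among clusters with 1 symbol. For Dnmt3b they were Hsd3b7, an enzyme of bile acid synthesis (r = 0.97), Meis1, a homeobox transcription factor (0.96), and Atp4a, the gastric proton pump subunit (0.96). For Dnmt1 they were Itpk1, an inositol phosphate kinase (0.96), Fbl, the nucleolar methyltransferase fibrillarin (0.95), and Wdr24 (0.95), and for Dnmt3a the laminin gene Lama1 (0.95), Gpr55 (0.95) and Acox3 (0.93). For Tet3 cluster 10545682 they were Hddc3 (0.95), the kinase Stk25 (0.95) and Arhgef10l (0.94). The closest gene to Dnmt3l was Ranbp3 (0.93), to Uhrf1 Pik3cb (0.92), to Tet2 Lhfpl2 (0.92), to Tet3 cluster 10545692 Trim26 (0.94), and to the Tet1 clusters Cd24a (0.87), Sult5a1 (0.94) and Farp1 (0.93).

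Genes of DNA replication and the stellate and endothelial cell lists were also high in the arrays where Dnmt3b was high. The mean of 19 measured genes of S phase and mitosis, of 20 listed, was 5.05 to 5.25 in 6Y, 4.69 to 4.81 in 16Y, 4.62 to 4.72 in 42Y, 4.85 to 5.17 in 6K, 4.70 to 4.75 in 42WKK and 4.64 to 4.77 in control 1. The 6Y and 6K arrays thus lay above all others for this list as well, and its r over the 12 arrays was 0.84 with Dnmt3b, 0.81 with Dnmt3a and 0.67 with Dnmt1. In 16Y against 6Y 2 of the 19 genes fell and none rose, the replicative helicase subunits Mcm4, at -0.89 (limma, adjusted p = 0.0352), and Mcm7, at -0.82 (limma, adjusted p = 0.0316). In 42Y against 6Y 1 fell, the helicase subunit Mcm2, at -0.80 (limma, adjusted p = 0.0258). In 42WKK against 6K 17 of 19 means were lower with none called.

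The stellate cell list, 8 genes, averaged 6.98 to 7.52 in 6Y, 6.50 to 6.56 in 16Y, 6.34 to 6.59 in 42Y, 7.01 to 7.11 in 6K, 6.69 to 6.75 in 42WKK and 6.48 to 6.71 in control 1. The endothelial list, 7 genes, averaged 7.53 to 7.95 in 6Y, 6.78 to 6.91 in 16Y, 7.07 to 7.38 in 42Y, 7.39 to 7.58 in 6K, 7.23 to 7.26 in 42WKK and 6.47 to 6.74 in control 1. For both lists the 6Y and 6K arrays were again the highest 4. In 16Y against 6Y 1 of 8 stellate genes and 4 of 7 endothelial genes fell and the mean of every gene on both lists was lower, with medians of -0.70 and -0.92. In 42Y against 6Y 3 stellate and 0 endothelial genes were called lower, while all 8 and all 7 means were lower, with medians of -0.80 and -0.50. In 42WKK against 6K 6 of 8 stellate and 7 of 7 endothelial means were lower with none called, with medians of -0.35 and -0.30. In the other lists of liver and blood cells the 6Y and 6K arrays were not the highest 4. The Kupffer cell and monocyte list averaged 6.52 to 7.23 in 6Y, 6.52 to 6.68 in 16Y, 6.63 to 6.83 in 42Y and 6.57 to 6.65 in 6K. Of its 8 genes 6 had lower means in 16Y than in 6Y, with a median of -0.33. In 42WKK against 6K 7 were lower, with a median of -0.23. The neutrophil list was lowest in 6K, at 3.88 to 3.98, and highest in 42Y, at 4.48 to 4.69. For the T cell, B cell, erythroid and cholangiocyte lists, too, the 6Y and 6K arrays were not the highest 4. The hepatocyte list moved little, with 0 of 8 genes called and a median of -0.08 in 16Y against 6Y. The part of these cell types or of dividing cells in the Dnmt3b difference was not tested. In bulk tissue, fewer cells of a type and less RNA per cell cannot be told apart.

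**Figure D4:**
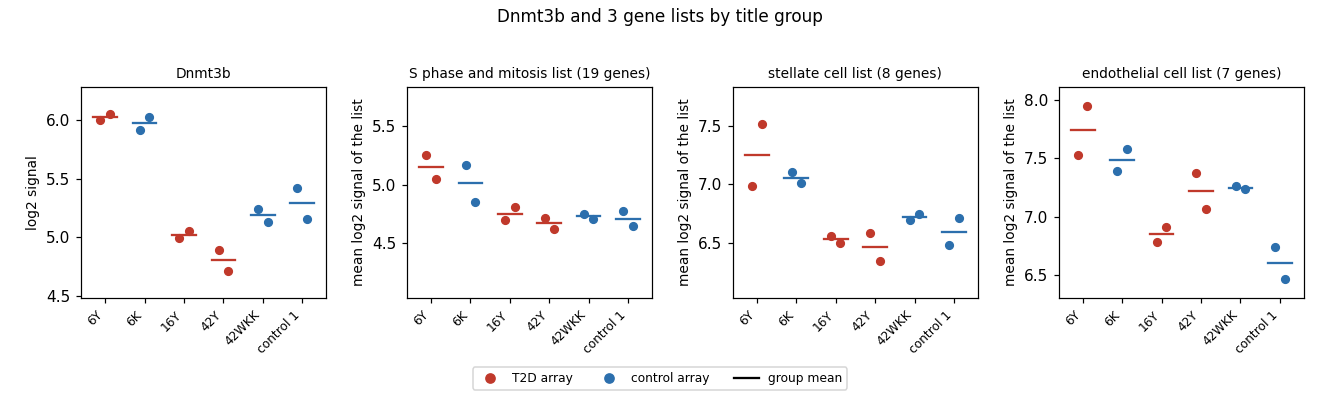
Log2 signal of Dnmt3b and the mean log2 signal of 3 gene lists (vertical axes, each spanning the same range of log2 units) in each array, by title group. Points are single arrays, T2D in red and control in blue, lines are means of 2 arrays. In all 4 panels the 6Y and 6K arrays were above the 8 others.

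The partners of the members changed at few genes, whose calls were not recomputed under other settings. Of 17 measured partners of maintenance and de novo methylation, of 18 listed, 1 fell in 42Y against 42WKK. This was Hdac2, a histone deacetylase found in complexes with methyltransferases, at 6.85 and 6.83 in 42Y, against 7.23 and 7.45 in 42WKK (difference -0.50, limma, adjusted p = 0.0479). The 42WKK arrays were the highest of the 12 for Hdac2, while control 1 read 6.90 and 6.94 and 16Y 6.95 and 7.00. In 16Y against 6Y the related Hdac1 fell to 7.21 and 7.39 in 16Y, against 8.02 and 8.12 in 6Y (difference -0.77, limma, adjusted p = 0.0354). Usp7, a deubiquitinase that stabilises Dnmt1 and Uhrf1, had a difference of -0.35 in 42Y against 42WKK without a call. The mean of the 17 partners was 6.14 to 6.20 in 6Y and 6.14 to 6.17 in 6K. As for the S phase, stellate and endothelial lists, these arrays lay above all others, the highest of which read 6.09 in 42WKK. None of 8 measured methyl-CpG readers was called in any of the 9 comparisons, and the 2 with the smallest p in 42Y against 42WKK were Zbtb38, at -0.48, and Mbd3, at 0.35.

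Downstream of the TET enzymes, all 12 genes of a list that joins base excision genes with Gadd45a, Gadd45b and Gadd45g were measured. Gadd45a, a stress-induced gene also linked to DNA demethylation, rose to 8.75 and 7.13 in 42Y, against 5.45 and 5.79 in 42WKK (difference 2.32 with an interval of 1.31 to 3.33, limma, adjusted p = 0.0433). Its 42Y arrays differed from each other by more than any member's arrays did. Gadd45g had a difference of 1.38 there without a call. Its 42Y arrays, at 8.98 and 9.19, lay inside the range of the control arrays, which read 9.84 and 8.43 in 6K and 7.89 and 7.53 in 42WKK. In 16Y against 6Y 2 of the 12 fell, the abasic site endonuclease Apex1, at -0.53 (limma, adjusted p = 0.0462), and the strand break sensor Parp1, at -0.46 (limma, adjusted p = 0.0438).

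For the methyl donor cycle, 14 of 18 listed genes were measured and 2 were called once each. Cbs, which draws homocysteine out of the cycle, fell to 10.5 and 10.5 in 16Y, against 11.1 and 11.2 in 6Y (difference -0.63, limma, adjusted p = 0.0400). Mat1a, the liver enzyme that makes S-adenosylmethionine, rose to 12.4 and 12.5 in 42Y, against 11.8 and 11.9 in control 1 (difference 0.62, limma, adjusted p = 0.0476), while its 42WKK arrays read 12.3 and 12.2. None of the 14 was called in 42Y against 42WKK, and the 2 with the smallest p were Nnmt, at 0.96, and Bhmt2, at -0.31. Among 9 measured genes around 2-oxoglutarate, succinate and fumarate, Fh1, the fumarate hydratase, rose in 42Y against control 1, at 0.71 (limma, adjusted p = 0.0385), and Idh3a, a subunit that makes 2-oxoglutarate, fell in 42Y against 6Y, at -0.79 (limma, adjusted p = 0.0495). The control 1 arrays were the lowest of the 12 for Fh1, at 9.62 and 9.61, while its 42WKK arrays read 10.2 and 10.1. None of the 9 was called in 42Y against 42WKK, and Idh1 and D2hgdh had the smallest p, at -0.42 and -0.39.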

How the data were processed

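Expression was measured on Affymetrix arrays of 12 samples. The values deposited by the authors are log2 signals of transcript clusters from robust multichip analysis (sketch), and the submitters' processing notes name Affymetrix Expression Console. Cluster numbers are those of the mouse gene array, although an exon array is named in the methods. No read depth exists for arrays, and precision is limited by how many there are. Array medians were 4.74 to 4.88, and r between arrays of a group was 0.983 to 0.991.

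With limma 3.58.1 (R 4.3.3; lmFit, eBayes, no trend) the means of 6 title groups were fitted to the deposited log2 values of 35556 clusters, with Benjamini-Hochberg adjustment over all of them and calls at an adjusted p under 0.05. The fit was tested on simulated data. Of the clusters 21789 carried 1 symbol, 1621 several and 12146 none, and 21698 symbols were updated through RefSeq GRCm38.p6, also the source of promoters.

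The members, lists and naming rule (all members, genes called in a list or its 2 smallest p, and the 3 nearest profiles) were chosen with earlier results of these data known. A gene with several clusters entered a list by its brightest. Columns of other samples numbered 0. Alternatives covered normalization, filters, the variance prior, arrays left out, the replicate block, the model and the study's ANOVA.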

Additional observations from a re-analysis of the deposited data

How the results depend on the processing

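The number of members called depended on the setting in 6 comparisons. In 16Y against 6Y it was 1 of 11, and 2 with median centring, with clusters of a mean log2 of at least 6, with clusters of 1 symbol and with a variance trend, where Dnmt1 was called (limma, adjusted p between 0.0124 and 0.0400). Dnmt3b, whose mean was under 6, was not in the filtered set, which held clusters of Dnmt1, Dnmt3a and Tet3. With that filter the second call was therefore a member other than Dnmt3b. In 42Y against 6Y the count stayed at 1 with the filter, but that call was likewise not Dnmt3b. In 42Y against 42WKK the count was 0, and 1 with a mean of at least 6 and 1 by the study's ANOVA at an unadjusted p under 0.05, in both cases Tet3 cluster 10545682, and 0 by that ANOVA after adjustment. The difference of differences gave 0, and 1 with a mean of at least 6 or with 1 symbol. In 42WKK against 6K it was 2, and 1 with a mean of at least 6. In 42Y against control 1 it was 0, and 1 with clusters of 1 symbol. The test over 6 groups gave 2, and 4 with clusters of 1 symbol and 3 with median centring, with a mean of at least 6 or with a variance trend. With each array left out in turn, the counts ranged from 0 to 2 in 16Y against 6Y, 0 to 2 in 42WKK against 6K and 1 to 2 over 6 groups. The cause was not tested except that the filters test fewer clusters.

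The numbers in the titles pair no samples by any source, and deviations of same-numbered arrays correlated between -0.04 and 0.05. With the replicate block 1 member was called in 42WKK against 6K, since Dnmt3b had an adjusted p of 0.0505 (limma), and the block changed no other member call. Without the 6K arrays, a setting chosen after seeing the data, Dnmt3b was still called in 16Y against 6Y and 42Y against 6Y. Over all T2D against all control arrays the sign turned for Dnmt1 (0.0887) and Dnmt3b (0.581) with the groups of the sample records, and for Dnmt3b (0.0470) with 2 group means without the 6K arrays, none of them called. With single arrays left out, the signs in 42Y against 42WKK turned for 6 clusters: the range was -0.212 to 0.0182 for Dnmt1 and -0.204 to 0.00435 for Dnmt3a (positive without the second 42Y array), -0.0360 to 0.112 for Uhrf1 (negative without that array or 42WKK array A), -0.225 to 0.205 for Tet1 cluster 10369688 (positive without the first 42Y array or 42WKK array B), -0.00449 to 0.130 for Tet2 (negative without the first 42Y array) and -0.0394 to 0.207 for Tet3 cluster 10545692 (negative without the second). Over the settings that tested all 35556 clusters, calls at an adjusted p under 0.05 ranged from 0 to 1113 in 42Y against 42WKK (659 as reported), 8 to 1349 in 16Y against 6Y (634), 104 to 978 in 42Y against 6Y (652) and 37 to 845 in 42WKK against 6K (360). Among the 11788 clusters with a mean of at least 6 they were 1721, 2011, 1329 and 1456 in the same order, and the ANOVA at an unadjusted p gave 3817 in 42Y against 42WKK.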

Other observations

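The remaining genes of the study's own account were read beside the members. Nt5c2, a cytosolic nucleotidase, averaged 6.99 in 42Y and 7.31 in 42WKK, a difference of -0.32 with an interval of -0.58 to -0.05 (limma, adjusted p = 0.211). Against control 1, which averaged 7.05, the 42Y difference of Nt5c2 was -0.06 with an interval of -0.33 to 0.20, and the arrays overlapped. Over all T2D against all control arrays its difference was 0.006. Among controls, its mean was higher in 42WKK than in 6K, at 7.31 against 7.02, without a call. Insr, the insulin receptor, had a pair of clusters with differences of -0.15 and -0.06 in 42Y against 42WKK (limma, adjusted p = 0.520 and 0.813). In 42Y against control 1 both signs were the opposite, at 0.27 and 0.07 (limma, adjusted p = 0.218 and 0.757). Dnmt3b and agouti lie on the same chromosome, 2, with 28 protein-coding genes between them in the RefSeq annotation. The Kupffer cell and monocyte list, 8 genes, averaged 6.63 to 6.83 in 42Y and 6.33 to 6.43 in 42WKK, with 1 gene called higher, and the neutrophil list, 7 genes, averaged 4.48 to 4.69 in 42Y and 3.94 to 4.01 in 42WKK, with 1 called higher.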
